A study of Drosophila melanogaster with 18 samples.

Results

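The genes described here are the *Drosophila* digestive enzyme genes of the Jonah protease, maltase and amylase families. They are the genes whose symbol begins with *Jon* and a digit, with *Mal-A* or *Mal-B*, or with *Amy*. There are 29 of them among the 17575 genes in each RNA-seq table, namely 16 Jonah proteases, 10 maltases and 3 amylases. The question was whether they move together across fat body libraries or whether single genes differ between the conditions.

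The libraries came from polyA RNA of larval fat bodies, 18 libraries in 6 groups of 3. For RNA-seq, *dcg-Gal4/+* controls were set against *dcg-Gal4/UAS-4EHP* RNAi, and *dcg-Gal4/UAS-lacZ* RNAi was set against *dcg-Gal4/UAS-NELF-E* RNAi. The *dcg-Gal4/+* controls came from crosses to *w1118* in place of the *4EHP* RNAi line. For TRIBE, which marks the mRNAs that a protein binds by editing them from A to G, *dcg-Gal4* drove either 4EHP fused to the catalytic domain of the RNA editing enzyme ADAR or the same fusion with a mutated cap-binding pocket (4EHP mutant-ADAR). All 6 groups carried *dcg-Gal4*, which drives UAS transgenes in the fat body, and by the methods each RNA-seq library pooled the fat bodies of several male larvae. 4EHP is a cap-binding protein related to eIF4E, NELF-E is a subunit of the complex that holds RNA polymerase II near promoters, and *lacZ* RNAi targets a bacterial gene absent from the fly. The methods keep *NELF-E* RNAi crosses at a lower temperature than the other crosses because of larval lethality. They do not name the *lacZ* RNAi crosses of this comparison, and if these were kept with the other crosses, *NELF-E* RNAi and rearing temperature cannot be told apart.

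Jonah proteases are chymotrypsin-like serine proteases that the midgut secretes into its lumen to cut dietary protein. Amylases cut starch into short sugars, and maltases (alpha-glucosidases) release glucose from maltose and related sugars. All of them are known mainly as enzymes of the gut, whereas the fat body is the larval organ of fat and glycogen storage and makes the storage proteins of the haemolymph.

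The RNA-seq values are CPM as deposited, the reads of a gene set against all reads on genes of its library, and between 59919642 and 173606229 reads per library were recovered from their steps. Control replicate 3 stood apart, with 7853 genes above 1 CPM against 10370 to 10719 in the other libraries of that comparison. Its scaling factor was 0.49 against 1.07 to 1.40. In the *NELF-E* comparison *lacZ* RNAi replicate 2 stood apart in the same measures, with 9335 genes above 1 CPM against 9866 to 10940 and a scaling factor of 0.50 against 0.73 to 1.57. The targeted transcripts did not separate the groups. *eIF4EHP* was at 5.55 to 26.6 CPM in controls and 14.8 to 21.4 CPM in the libraries labelled *4EHP* RNAi, and *Nelf-E* was at 12.8 to 38.6 CPM in *lacZ* RNAi and 32.3 to 35.0 CPM in the libraries labelled *NELF-E* RNAi. After scaling, *eIF4EHP* was at 19.9 and 19.8 in control replicates 1 and 2, above the 10.6 to 17.0 of *4EHP* RNAi. Control replicate 3, at 11.3, lay within that range. *Nelf-E* overlapped after scaling as well. Libraries are therefore named by their labels, and each direction below rests on those labels. The fat body markers were abundant, as the 7 fat body genes checked (storage proteins, *Fbp1*, *Fbp2* and *apolpp*) summed to between 145917 and 370181 CPM in every library. All samples carry the same batch label, so it separates no libraries.

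Most of the digestive enzyme genes were barely present. In the 6 libraries of the *4EHP* comparison, 7 members had a mean of at least 5 CPM (4 Jonah proteases and 3 maltases), and 19 lay below 1 CPM. *Jon66Ci*, *Mal-A1* and *Mal-A8* lay between 1 and 5 CPM. In the 6 libraries of the *NELF-E* comparison, 5 members reached 5 CPM (*Jon65Aiii*, *Jon65Aiv*, *Mal-A5*, *Mal-A6* and *Mal-B2*), *Jon25Bi* and *Jon25Bii* lay between 1 and 5 CPM, and the rest were below 1 CPM. Only 8 members had reads in all 12 libraries.

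**Figure D1:**
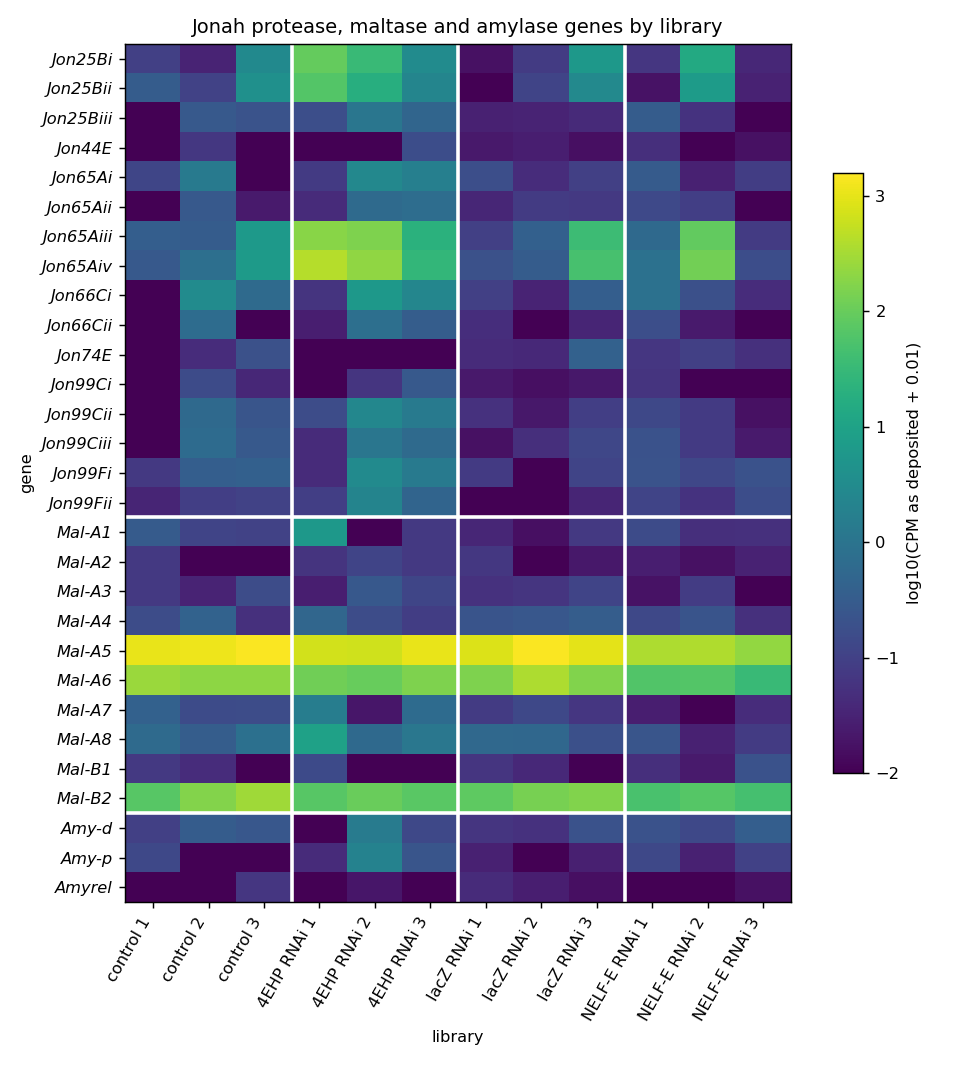
Level of each of the 29 genes (rows, grouped as Jonah proteases, maltases and amylases) in each of the 12 RNA-seq libraries (columns, 3 per group), coloured by log10 of CPM as deposited plus 0.01. *Mal-A5*, *Mal-A6* and *Mal-B2* are bright in every library, *Jon65Aiii*, *Jon65Aiv*, *Jon25Bi* and *Jon25Bii* are bright in some libraries of each comparison, and the other genes are dark in most.

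The maltases were dominated by *Mal-A5*, *Mal-A6* and *Mal-B2*, which together made up between 98.02% and 99.95% of the summed maltase CPM in every library. *Mal-A5* (FBgn0050359) lies on chromosome 2R at 8462753-8465092 and *Mal-A6* (FBgn0050360) at 8465158-8467595 (BDGP6.54), both on the plus strand and 66 bases apart within the row of *Mal-A* genes. *Mal-B2* (FBgn0032382) lies on chromosome 2L at 11849958-11852881, also on the plus strand. Per kilobase of exon, *Mal-A5* was the highest of the 3 in controls at 587 ± 103 CPM per kb (SD, n = 3), against 98.2 ± 12.4 for *Mal-A6* and 74.9 ± 45.9 for *Mal-B2*. The levels of *Mal-A6* and *Mal-B2* differed by less than the spread between those controls. The ratio of *Mal-A5* CPM to *Mal-A6* CPM ran from 4.15 to 7.02 over the 12 libraries, with a median of 5.96. Both the lowest and the highest ratio were in controls (replicates 1 and 3).

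After *4EHP* RNAi, *Mal-A5* and *Mal-A6* were at lower levels than in controls, by a size that limma did not call. In bulk RNA such as this, fewer cells of a type and less RNA per cell cannot be told apart. *Mal-A5* was at 1071, 1154 and 1479 CPM in controls and at 696, 658 and 1067 CPM in *4EHP* RNAi. *Mal-A6* was at 258, 207 and 211 CPM in controls and at 116, 99.8 and 160.0 CPM in *4EHP* RNAi. *Mal-B2* was at 70.8, 168 and 284 CPM in controls and at 69.9, 100.5 and 73.5 CPM in *4EHP* RNAi. In CPM as deposited the groups did not overlap for *Mal-A5* and *Mal-A6*, as was the case for 5.07% of the genes tested in this direction, although the lowest *Mal-A5* control and the highest *4EHP* RNAi library were nearly level, and they overlapped for *Mal-B2* because control replicate 1 was as low as *4EHP* RNAi.

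For the tests, each library was scaled by its median-of-ratios factor, and limma was fitted to log2(CPM + 1) of the genes averaging 5 CPM or more, with p adjusted by Benjamini-Hochberg over all of them. Fold changes are on that scale, which understates the change of low genes. Of the 8584 genes tested in the *4EHP* comparison, 0 passed an adjusted p of 0.05 with limma (0% in either direction) and 0 with edgeR, while DESeq2 called 2.16% of its genes lower and 2.43% higher. At an unadjusted p under 0.05, limma gave 850 genes (9.9%), 4 of them among the 7 members tested. The 4 Jonah genes tested averaged 1.02 to 2.64 CPM in controls and reached the filter of 5 CPM only through the *4EHP* RNAi libraries. They were tested only because they were high there, so the share of all genes is no fair measure for them. The median log2 fold change of all genes was 0.15, or 0.68 with CPM as deposited, and the values below are to be read against it.

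The limma estimate for *Mal-A6* was −1.44 on the log2 scale (standard error 0.46, Benjamini-Hochberg adjusted p = 0.363). The estimate for *Mal-A5* was −1.22 (0.60, adjusted p = 0.592) and for *Mal-B2* it was −1.48 (0.85, adjusted p = 0.674). All 3 were negative under each of the 17 alternatives run, and their size moved with control replicate 3. Without that library the values were −1.02 for *Mal-A6* (adjusted p = 0.0729 from limma), −0.62 for *Mal-A5* (0.281) and −0.56 for *Mal-B2* (0.470). In scaled CPM, *Mal-A5* and *Mal-A6* lay below all 3 controls in all 3 *4EHP* RNAi libraries, as did 11% of the genes tested.

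*NELF-E* RNAi was accompanied by lower levels of the same 3 maltases, by a larger estimate and again without a call by limma. *Mal-A5* was at 855, 1492 and 976 CPM in *lacZ* RNAi and at 370.4, 372 and 229.8 CPM in *NELF-E* RNAi. *Mal-A6* was at 157, 358 and 161 CPM in *lacZ* RNAi and at 62.4, 64.8 and 33.6 CPM in *NELF-E* RNAi. *Mal-B2* was at 81.0, 136 and 162 CPM in *lacZ* RNAi and at 51.2, 66.0 and 45.3 CPM in *NELF-E* RNAi. The groups did not overlap for any of the 3, and the gap between them was widest for *Mal-A5* and *Mal-A6*.

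In CPM as deposited, the mean of *Mal-A5* was 1108 ± 338 in *lacZ* RNAi and 324 ± 81.7 in *NELF-E* RNAi (SD, n = 3), which is 3.42-fold lower. The corresponding means were 225 ± 115.2 and 53.6 ± 17.4 for *Mal-A6* (4.21-fold lower) and 126 ± 41.3 and 54.2 ± 10.7 for *Mal-B2* (2.33-fold lower). All 3 lay below every *lacZ* RNAi library in every *NELF-E* RNAi library, as did 7.39% of the genes tested in CPM as deposited and 17.7% in scaled CPM.

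**Figure D2:**
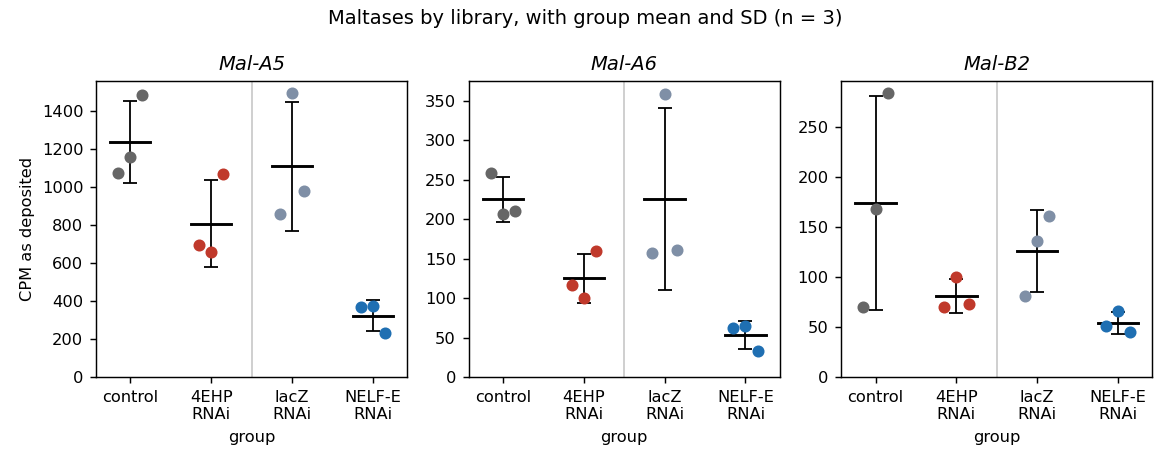
CPM as deposited (linear axes from 0) of *Mal-A5*, *Mal-A6* and *Mal-B2* in the 4 RNA-seq groups, with each library as a point, the group mean as a horizontal line and the SD of 3 libraries as whiskers. The *NELF-E* RNAi libraries lie between 229.8 and 372 CPM for *Mal-A5*, below the 855 CPM of the lowest *lacZ* RNAi library, while for *Mal-B2* control replicate 1 sits among the *4EHP* RNAi libraries.

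Limma called 205 of 8371 genes lower (2.45%) and 167 higher (1.99%) in the *NELF-E* comparison, 0 of them among the 5 members tested. With CPM as deposited the split turned to 2.07% lower and 4.03% higher, and *Mal-A5* and *Mal-A6* were then among those lower. The log2 estimate was −2.74 for *Mal-A6* (standard error 0.66, limma's Benjamini-Hochberg adjusted p = 0.0602), −2.51 for *Mal-A5* (0.62, 0.0649) and −1.91 for *Mal-B2* (0.57, 0.115). All 3 had an unadjusted p under 0.05, as did 19.1% of the genes tested, and the median of all genes was −0.05. Their direction was the same under each of 17 alternatives. DESeq2 on the recovered reads called all 3 (adjusted p of 4.54e-06 for *Mal-A6* and 7.90e-06 for *Mal-A5*), where it called 9.49% of its genes lower and 3.34% higher, and edgeR called 0 of them, where it called 2.44% lower and 2.23% higher. With array weights in limma all 5 members tested were called lower, where 30.2% of genes were called lower and 24.1% higher. A block for replicate number, although it was not established that the numbers pair the samples, gave calls for the 3 maltases. It called 8.47% of genes lower and 3.74% higher. The size of the estimates moved with *lacZ* RNAi replicate 2, which had the highest scaled CPM of *Mal-A5* (2987, against 662 and 1338 in the other *lacZ* RNAi libraries) and of *Mal-A6* (718, against 121 and 221). Without it the values were −1.93 for *Mal-A5* (limma adjusted p = 0.116), −2.002 for *Mal-A6* (0.0921) and −1.48 for *Mal-B2* (0.274). The limma call turned on *lacZ* RNAi replicate 1. Without it, limma called all 3, with adjusted p of 0.00699 for *Mal-A6*, 0.00565 for *Mal-A5* and 0.00276 for *Mal-B2*, and 23.8% of the genes tested were then called lower.

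The other 7 maltases were at trace levels. *Mal-A8* was at 9.63 CPM in *4EHP* RNAi replicate 1 and at no more than 1.16 CPM in the other 11 libraries. *Mal-A1* was at 5.86 CPM in the same library and at no more than 0.297 CPM elsewhere, and *Mal-A7* was at 1.602 CPM there and at no more than 0.634 CPM elsewhere. These 3 genes thus peaked in a single library of the 12, and exons of *Mal-A1* and *Mal-A8* overlap *Cyp4e1* and *mtt* on the opposite strand, so their reads are uncertain where counting did not use strand. In the *NELF-E* comparison *Mal-A7* had 11, 21 and 9 reads in *lacZ* RNAi and 2, 0 and 5 reads in *NELF-E* RNAi, too few for a level to be given. None of the 7 passed in the fits with no filter or with a mean of at least 1 CPM.

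*Jon65Aiv*, *Jon65Aiii*, *Jon25Bi* and *Jon25Bii* gave most of the Jonah reads in every library where Jonah genes were abundant, and their levels ranged more widely between libraries of the same group than those of the abundant maltases. *Jon65Aiv* (FBgn0250815, chromosome 3L, 6039155-6040135) and *Jon65Aiii* (FBgn0035665, 3L, 6050757-6051690) lie on the plus strand of the *Jon65A* cluster. *Jon25Bi* (FBgn0020906, 2L, 4954279-4955144) and *Jon25Bii* (FBgn0031654, 2L, 4952243-4953136) are neighbours on the minus strand. Jonah genes resemble each other in sequence, and reads that match several of them could have been split or lost in the authors' counting, so the values of single genes are uncertain.

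*Jon65Aiv* was at 0.272, 0.785 and 6.86 CPM in controls and at 426, 213 and 28.1 CPM in *4EHP* RNAi. *Jon65Aiii* was at 0.346, 0.316 and 6.23 CPM in controls and at 189.9, 158 and 21.3 CPM in *4EHP* RNAi. All 3 *4EHP* RNAi libraries lay above all 3 controls for both genes, with control replicate 3 well above the other controls and *4EHP* RNAi replicate 3 well below the other RNAi libraries. *Jon25Bi* was at 0.087, 0.023 and 2.96 CPM in controls and at 92.4, 33.4 and 3.18 CPM in *4EHP* RNAi. *Jon25Bii* was at 0.321, 0.094 and 4.07 CPM in controls and at 65.1, 18.2 and 2.31 CPM in *4EHP* RNAi. For *Jon25Bii*, control replicate 3 exceeded *4EHP* RNAi replicate 3, and for *Jon25Bi* it did so once the libraries were scaled.

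After scaling, *Jon65Aiv* and *Jon65Aiii* were the Jonah genes tested whose groups did not overlap, as was the case for 7.78% of the genes tested in that direction (23.5% in CPM as deposited). Both passed the filter only through the *4EHP* RNAi libraries, so these shares, and those given with the calls below, are no fair measure for them. For *Jon65Aiv* the log2 estimate was 5.05 (standard error 1.33), with a limma adjusted p of 0.264 by Benjamini-Hochberg, and for *Jon65Aiii* it was 4.55 (1.24, 0.278). *Jon25Bi* had 3.22 (1.31, 0.499) and *Jon25Bii* 2.44 (1.31, 0.643). The call on the first 2 turned on control replicate 3. Without it limma gave 6.42 for *Jon65Aiv* (adjusted p = 0.0191) and 5.97 for *Jon65Aiii* (adjusted p = 0.0149) and called 5.25% of the genes tested higher and 1.36% lower. DESeq2 called both genes over all 6 libraries, with adjusted p of 0.0119 and 0.0445. Array weights in limma gave calls for the 4 Jonah genes and *Mal-A6*, where 12.4% of genes were called lower and 13.1% higher. Leaving out *4EHP* RNAi replicate 1 as well as control replicate 3, chosen after seeing the data, gave calls for *Jon65Aiv*, *Jon65Aiii* and *Mal-A6*, where 10.7% of genes were called lower and 12.9% higher.

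In the *NELF-E* comparison the Jonah genes were high in a single library of each group. *Jon65Aiv* was at 0.184, 0.317 and 47.6 CPM in *lacZ* RNAi and at 0.86, 121 and 0.156 CPM in *NELF-E* RNAi. *Jon65Aiii* was at 0.086, 0.380 and 36.9 CPM in *lacZ* RNAi and at 0.579, 90.7 and 0.071 CPM in *NELF-E* RNAi. One library of each group, *lacZ* RNAi replicate 3 and *NELF-E* RNAi replicate 2, held nearly all of the reads, and the groups overlapped, whereas 8.1% of the genes tested lay above every *lacZ* RNAi library in scaled CPM.

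*Jon25Bi* and *Jon25Bii* followed the same libraries, at 5.84 and 2.76 CPM in *lacZ* RNAi replicate 3, at 14.6 and 7.01 CPM in *NELF-E* RNAi replicate 2, and at no more than 0.109 CPM in the other 4 libraries. With limma the log2 fold change was 0.24 for *Jon65Aiv* (standard error 1.99, adjusted p = 0.947) and 0.13 for *Jon65Aiii* (1.89, 0.973), with 95% intervals of −4.32 to 4.797 and −4.20 to 4.45. The sign of both estimates changed with the library left out. Without those 2 libraries, an alternative chosen after the values were seen, the maltases had log2 fold changes of −2.79 (*Mal-A5*), −3.17 (*Mal-A6*) and −1.94 (*Mal-B2*), with adjusted p of 0.448, 0.325 and 0.547 from limma.

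The proportions of the 4 Jonah genes were alike in several libraries whose totals differed. *Jon65Aiv* made up 51.1% of their summed CPM in *lacZ* RNAi replicate 3, 52.0% in *NELF-E* RNAi replicate 2 and 51.1% in *4EHP* RNAi replicate 3. The share of *Jon65Aiii* in the same libraries was 39.6%, 38.8% and 38.9%, and that of *Jon25Bi* was 6.27%, 6.26% and 5.80%. The sums themselves were 93.1, 234 and 54.9 CPM, so libraries of 3 genotypes had nearly the same make-up at different levels. *4EHP* RNAi replicate 1, the library with the highest sum (773 CPM), differed, with 24.6% *Jon65Aiii*, 11.9% *Jon25Bi* and 8.42% *Jon25Bii*. Control replicate 3 had 20.2% *Jon25Bii* at a sum of 20.1 CPM.

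**Figure D3:**
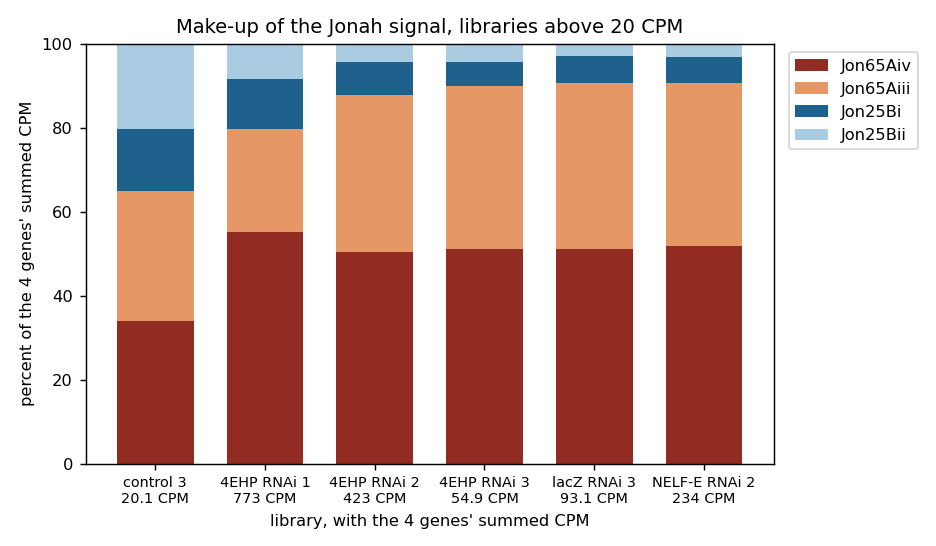
Share of *Jon65Aiv*, *Jon65Aiii*, *Jon25Bi* and *Jon25Bii* (stacked, percent of their summed CPM) in the 6 libraries where the sum exceeded 20 CPM, with that sum under each bar. The bars of *4EHP* RNAi replicate 3, *lacZ* RNAi replicate 3 and *NELF-E* RNAi replicate 2 are nearly the same, with *Jon65Aiv* at 51.1% to 52.0%, while *4EHP* RNAi replicate 1 and control replicate 3 have larger *Jon25B* shares.

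The other 12 Jonah genes had a pattern of their own. Their summed CPM was 0.198, 7.62 and 2.05 in controls and 0.633, 20.0 and 9.96 in *4EHP* RNAi. Of these 12 genes, 8 were highest in *4EHP* RNAi replicate 2, 3 in *4EHP* RNAi replicate 3, 1 in control replicate 3 and 0 in *4EHP* RNAi replicate 1, the library where each of the 4 abundant Jonah genes peaked. *Jon66Ci*, the highest of them, was at 0, 3.21 and 0.628 CPM in controls and at 0.050, 5.89 and 2.47 CPM in *4EHP* RNAi. In control replicate 2 the 12 genes summed to more than the 4 others (7.62 against 1.22 CPM), and in *NELF-E* RNAi replicate 1 as well (2.59 against 1.51 CPM). In the *NELF-E* comparison none of the 12 exceeded 0.877 CPM in any library. Of them, 10 were highest in *NELF-E* RNAi replicate 1, 1 in *NELF-E* RNAi replicate 3 and 1 in *lacZ* RNAi replicate 3.

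The amylases were near the limit of detection. *Amy-p* and *Amy-d*, adjacent near-identical copies on chromosome 2R between which reads cannot be told apart with certainty, were highest in *4EHP* RNAi replicate 2, at 2.03 and 1.44 CPM (188 and 133 reads). That is the library where most of the 12 lower Jonah genes also peaked. Elsewhere neither exceeded 0.354 CPM. *Amyrel*, a diverged amylase relative, had at most 5 reads in any library, and its exons overlap *gprs* on the opposite strand. No amylase reached the level needed for the test.

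Other midgut genes were measured beside the Jonah genes. The summed CPM of 15 other digestive protease genes (trypsins, *yip7* and relatives) was 1.38, 2.14 and 8.88 in controls, 305, 100.05 and 15.0 in *4EHP* RNAi, 1.76, 1.76 and 34.0 in *lacZ* RNAi and 1.12, 64.1 and 1.02 in *NELF-E* RNAi. The libraries high in this sum were the libraries high in the 4 Jonah genes. In *lacZ* RNAi replicate 3 and *NELF-E* RNAi replicate 2, however, nearly all of the sum was *yip7* alone. *yip7*, a serine protease, was at 88.8, 83.6 and 9.63 CPM in *4EHP* RNAi, 31.4 CPM in *lacZ* RNAi replicate 3 and 62.0 CPM in *NELF-E* RNAi replicate 2, and at no more than 0.893 CPM in the other 7 libraries.

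The trypsins *alphaTry*, *betaTry* and *epsilonTry* were highest in *4EHP* RNAi replicate 1, at 43.8, 102 and 66.6 CPM, and were at most 8.06 CPM in any other library. Several of the 15 genes had no reads, with 4 to 8 of them at 0 in each library. A further list of 15 midgut markers summed to between 3.53 and 25.2 CPM in 11 libraries and to 714 CPM in *4EHP* RNAi replicate 1. *Peritrophin-15a* and *Peritrophin-15b*, chitin-binding proteins of the lining of the gut lumen, gave 437 and 168 CPM of that sum. The digestive lysozyme *LysS* was at 32.4, 9.50 and 1.30 CPM in *4EHP* RNAi, at 15.2 CPM in *NELF-E* RNAi replicate 2 and at 1.93 CPM in *lacZ* RNAi replicate 3. The other lysozymes listed were at no more than 0.115 CPM in *NELF-E* RNAi replicate 2. *LysB*, *LysC*, *LysD* and *LysE* peaked in *4EHP* RNAi replicate 1, *LysP* in *4EHP* RNAi replicate 2 and *LysX* in control replicate 3. *Mal-A1*, *Mal-A7* and *Mal-A8* peaked in *4EHP* RNAi replicate 1 together with *Peritrophin-15a* and *Peritrophin-15b*, whereas *Peritrophin-A* did not. Other markers of the list did not follow the Jonah genes. *mex1* was at 6.82, 0.766 and 1.95 CPM in *lacZ* RNAi and at 5.80, 4.10 and 5.83 CPM in *NELF-E* RNAi. *lab* and *Ptx1* were likewise higher in replicate 1 of each group than in *lacZ* RNAi replicate 3 or *NELF-E* RNAi replicate 2.

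By a rule set after the values were seen, 10 genes were at 2 CPM or more in both *lacZ* RNAi replicate 3 and *NELF-E* RNAi replicate 2 and below 1 CPM in the other 4 libraries of that comparison. They were the 4 abundant Jonah genes and *yip7*, *CG14302*, *CG31789*, *CG6933*, *CG7953* and *CG8664*. The part that gut tissue has in the Jonah levels was not tested.

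**Figure D4:**
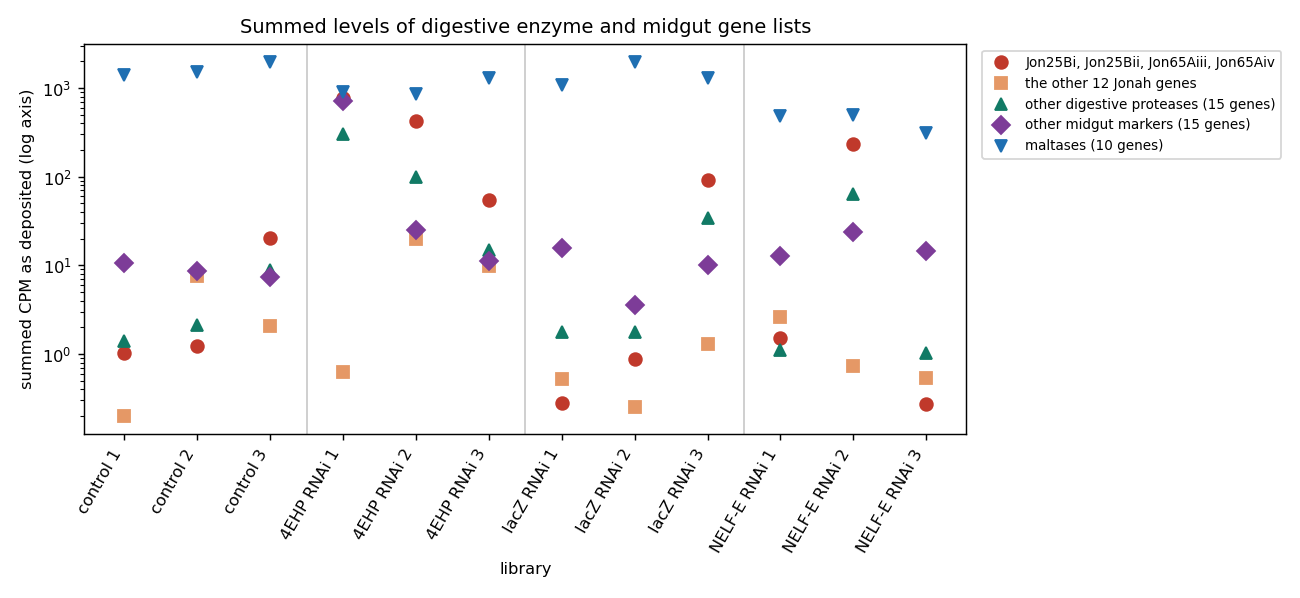
Summed CPM as deposited (log axis) of the 4 abundant Jonah genes, the other 12 Jonah genes, 15 other digestive protease genes, 15 other midgut markers and the 10 maltases in each RNA-seq library. The 4 Jonah genes and the other digestive proteases are high in the same libraries (773 and 305 CPM in *4EHP* RNAi replicate 1, 234 and 64.1 CPM in *NELF-E* RNAi replicate 2), whereas the maltase sum stays between 309 and 1987 CPM. In *NELF-E* RNAi replicate 2, *yip7* alone gives 62.0 CPM of the other digestive proteases.

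The 3 abundant maltases did not follow the gut lists. *Mal-A5* was at 855 CPM in *lacZ* RNAi replicate 1, where all 16 Jonah genes together had 0.797 CPM, and at 372 CPM in *NELF-E* RNAi replicate 2, where they had 235 CPM. The maltase sum was 1401, 1530 and 1975 CPM in controls and 900, 859 and 1303 CPM in *4EHP* RNAi, whose Jonah sums were 774, 443 and 64.9 CPM. *NELF-E* RNAi replicates 1 and 2, with Jonah sums of 4.10 and 235 CPM, had nearly the same maltase sums (485 and 503 CPM).

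Markers of other tissues were summed in the same libraries, in CPM as deposited. None of the single genes of these lists that were tested passed with limma. In the *4EHP* comparison 6 of 7 muscle genes had an unadjusted p under 0.05, as did 9.9% of all genes tested. *Mhc*, *up*, *wupA* and *Tm2* were at no more than 3.48 CPM in any control. They reached the filter of 5 CPM only through the *4EHP* RNAi libraries, so the share of all genes is no fair measure for them. In controls and *4EHP* RNAi, the 7 muscle genes summed to 18.1 to 36.5 and 57.6 to 164 CPM, the 4 Malpighian tubule genes to 2.55 to 3.89 and 12.0 to 19.8 CPM, and the 6 haemocyte genes to 29.7 to 61.9 and 70.0 to 91.6 CPM. Salivary glue genes summed to 13.8 to 560 and 112 to 581 CPM, and testis genes to 29.6 to 1762 and 1462 to 2786 CPM. On this scale 23.5% of the genes tested lay above all 3 controls in all 3 *4EHP* RNAi libraries. After scaling, the median log2 fold change was 1.82 for the muscle genes and 0.59 for the 5 haemocyte genes tested, against 0.15 for all genes. Because of the filter, these medians are no fair measure against all genes either. Among the haemocyte genes, *Sr-CI*, at no more than 3.70 CPM in controls, passed it in the same way. No Malpighian tubule gene reached the level needed for the test. In *lacZ* RNAi and *NELF-E* RNAi the ranges overlapped for all 5 lists. In CPM as deposited, the fat body genes did not all lie in one direction. *Fbp1*, a receptor for storage proteins, was at 111893 to 146327 CPM in controls against 9122 to 26119 CPM in *4EHP* RNAi, and at 74104 to 127831 CPM in *lacZ* RNAi against 17727 to 24082 CPM in *NELF-E* RNAi. *Lsp2*, a storage protein gene, lay the other way, at 53880 to 77491 CPM in controls against 99254 to 129534 CPM in *4EHP* RNAi, and at 65311 to 85824 CPM in *lacZ* RNAi against 94502 to 113716 CPM in *NELF-E* RNAi. After scaling, the limma log2 fold change of *Lsp2* was 0.11 in the *4EHP* comparison (adjusted p = 0.932). It was −0.35 in the *NELF-E* comparison (limma adjusted p = 0.802), where no fat body gene had a positive estimate. The higher CPM of *Lsp2* thus depends on the scale, while *Fbp1* was at −3.48 and −2.94. Of the 7 genes, 0 passed with limma in either comparison. At an unadjusted p under 0.05 were 3 and 2 of them, against 9.9% and 19.1% of all genes tested. Their part in the maltase values was not tested.

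The 2 comparisons share no library, so their difference was fitted over all 12. Of 8532 genes tested, 0 passed with limma (193, or 2.26%, at an unadjusted p under 0.05) and 0 with edgeR, and DESeq2 called 0.202% in each direction. None of the 7 members tested passed with any of the 3 tools, and none had an unadjusted p under 0.05. Array weights in limma gave calls for all 7, where 21.2% of genes were called lower and 25.2% higher. The log2 fold change after *4EHP* RNAi minus that after *NELF-E* RNAi was 1.26 for *Mal-A5* (95% interval −0.69 to 3.21), 1.27 for *Mal-A6* (−0.68 to 3.22) and 0.40 for *Mal-B2* (−2.04 to 2.84). It was 4.77 for *Jon65Aiv* (−1.63 to 11.2) and 4.38 for *Jon65Aiii* (−1.65 to 10.4). These intervals include both no difference and large ones.

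**Figure D5:**
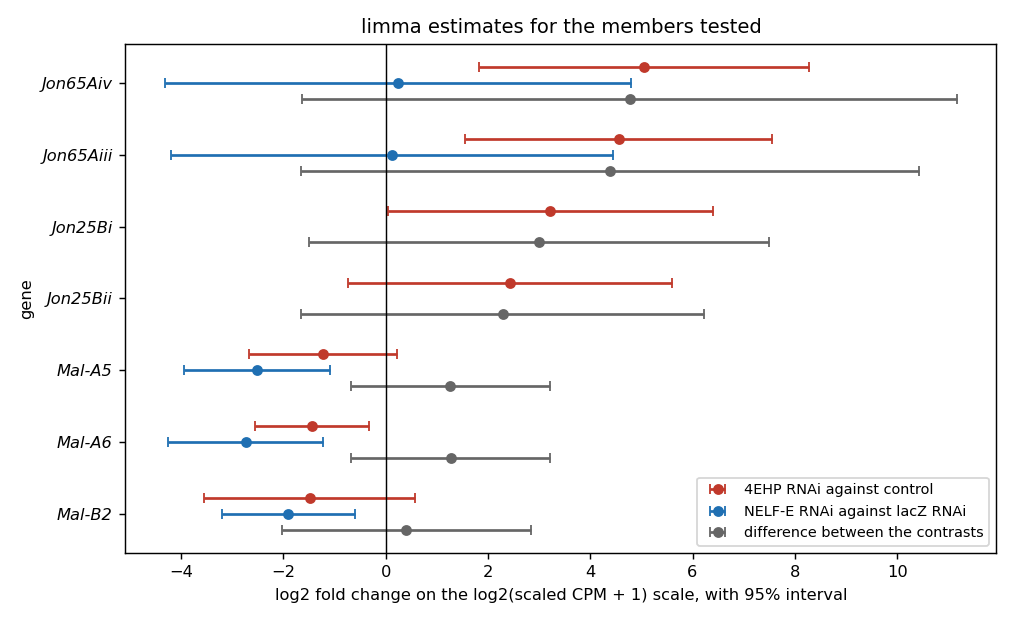
Log2 fold change (limma, log2 of scaled CPM plus 1) with its 95% interval for each gene tested, after *4EHP* RNAi (red), after *NELF-E* RNAi (blue) and for the difference between the 2 comparisons (grey). The maltase estimates lie left of 0 in both comparisons (−1.22 to −1.48 and −1.91 to −2.74), *Jon65Aiv* is at 5.05 after *4EHP* RNAi and at 0.24 after *NELF-E* RNAi, and every grey interval crosses 0.

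Genes of sugar metabolism and of the response to sugar were counted beside the maltases, in a list of 28. In the *4EHP* comparison 22 of them were tested, 0 passed with limma and 3 had an unadjusted p under 0.05 (9.9% of all genes tested), with a median log2 fold change of −0.54 against 0.15 for all genes. In the *NELF-E* comparison 21 were tested and 2 passed, both lower (2.45% of all genes tested), with 9 at an unadjusted p under 0.05 (19.1%) and a median of −0.76 against −0.05. The first was *Gba1b*, a glucosylceramidase, at 52.5, 78.1 and 62.3 CPM in *lacZ* RNAi and at 6.20, 6.91 and 5.75 CPM in *NELF-E* RNAi (log2 fold change −3.83, standard error 0.46, adjusted p = 0.00405 from limma). The other was *UGP*, which makes UDP-glucose, at 102, 122 and 131 CPM in *lacZ* RNAi and at 37.9, 58.5 and 42.7 CPM in *NELF-E* RNAi (−2.09, 0.47, adjusted p = 0.0472). Both genes, named because they passed, were lower in *NELF-E* RNAi with no overlap. So were the 3 maltases, and 7.39% of all genes tested in CPM as deposited (17.7% in scaled CPM). *tobi*, another alpha-glucosidase gene, stayed below 1 CPM in all 12 libraries.

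TRIBE sites were listed in 3 of the 29 genes, with 10 in *Mal-B2*, 2 in *Mal-A5* and 1 in *Mal-A6*. The table holds only the positions that the authors kept, so the other 26 genes were not measured by it. A minimum of 20 reads per library left 69874 sites, of which 65 (0.093%) passed a quasi-binomial test with Benjamini-Hochberg adjustment. None of the 9 member sites tested passed, and 1 had an unadjusted p under 0.05, as did 1.29% of all sites. Fisher's exact test on pooled reads called 750 sites (1.07%), and limma on the empirical logit called 489, again with 0 in these genes.

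That site, listed at position 11850643 of chromosome 2L in the coding sequence of *Mal-B2*, had the highest score of the 13. It carried G in 5 of 404, 5 of 340 and 6 of 251 reads with 4EHP-ADAR and in 1 of 246, 0 of 186 and 0 of 172 reads with 4EHP mutant-ADAR. Every 4EHP-ADAR library was above every 4EHP mutant-ADAR library, at low counts. The score is itself a ratio between the constructs on these reads, so a site with the highest score tends toward such a separation. How many of all sites separate in this way was not counted. Pooled, the G share was 1.61% (95% Wilson interval 0.99% to 2.60%) and 0.166% (0.029% to 0.93%), and the adjusted p was 0.521 in the quasi-binomial test. The table does not say whether its positions count from 0 or from 1, and the gene part of each of the 13 sites is the same either way.

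The second *Mal-A5* site, listed at 8464085 in an intron, had the only high share, with G in 62.3% of 289 reads with 4EHP-ADAR and in 60.6% of 269 reads with 4EHP mutant-ADAR. The constructs thus differed there by less than the spread between libraries, whose shares ran from 56.9% to 71.3% and from 59.5% to 61.8%. The other 11 sites together held 19 G reads of 7356 with 4EHP-ADAR and 2 of 5415 with 4EHP mutant-ADAR, counts that are not independent of how the sites were kept. Intervals on read shares cover counting error only.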

How the data were processed

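RNA-seq and TRIBE libraries were grouped by their labels. For RNA-seq, the authors deposited CPM for each gene, with STAR, featureCounts, DESeq2 and the dm6 genome named in the submitters' processing notes. Whether counting used strand is not given in the sources used here, nor is the annotation. For TRIBE, the deposited table gives base read counts of each library per site, with no C or T reads, and a binding score by the authors, a log-likelihood ratio between the constructs. Its columns were assigned to the constructs, not to single samples, from the headings of the study's own copy.

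Whole reads were recovered from the CPM steps (100% of the low values tested were whole within 0.1). After scaling by median-of-ratios factors, limma 3.58.1 with trended eBayes in R 4.3.3 was run on log2(CPM + 1) of genes averaging at least 5 CPM, with Benjamini-Hochberg adjustment and a threshold of 0.05. The alternatives were edgeR 4.0.16 (quasi-likelihood), DESeq2 1.42.0, CPM as deposited, TMM, pseudocounts of 0.1 and 5, other filters, array weights, a replicate block and leaving out libraries. TRIBE shares were fitted with a quasi-binomial model, with at least 20 reads per library, and the alternatives were a read minimum of 10 or 50, limma on the logit, Fisher's exact test on pooled reads and leaving out libraries.

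On simulated data with 200 changed genes, limma recovered 200 with 15 false calls of 8553 genes (*4EHP*), 13 of 8362 (*NELF-E*) and 9 of 8518 (difference), and the TRIBE test 200 with 7 false of 20000. Those data hold no library that stands apart. Their changes were of a single fixed size, and their spread between libraries was smaller than that of most members tested here. The recovery therefore does not measure the power of the fits on the real libraries. Positions and exon lengths came from the BDGP6.54 annotation, which matched 29 of 29 genes.

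Members with a mean of at least 5 CPM were given per library, those of 1 to 5 CPM by range and those below 1 CPM by count, with other genes named where they passed the test or define another tissue. Genes named outside this rule were chosen after their values were seen. The gene families and lists were chosen with earlier results of these data known. The study describes the 3 libraries of a genotype as biological replicates, and p-values measure the spread between them only.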

Additional observations from a re-analysis of the deposited data

How the results depend on the processing

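In the *4EHP* comparison limma called 0 members. This became 5 with array weights (12.4% of all genes lower, 13.1% higher) and 2 with DESeq2 (2.16% and 2.43%). It became 3 without control replicate 3 and *4EHP* RNAi replicate 1, chosen after seeing the data (10.7% and 12.9%). With 1 library left out it ranged from 0 to 2, the latter without control replicate 3 (1.36% and 5.25%). In the *NELF-E* comparison 0 members became 5 with array weights (30.2% of all genes lower, 24.1% higher). They became 2 with CPM as deposited (2.07% and 4.03%) and 3 with DESeq2 (9.49% and 3.34%). With 1 library left out they ranged from 0 to 3, the latter without *lacZ* RNAi replicate 1 (23.8% and 17.5%). For the difference, 0 members became 7 with array weights, which then called 1811 genes lower and 2153 higher of 8532. The counts of all genes called moved as well, from 0 to as many as 2183 in the *4EHP* comparison (with array weights) and from 372 to between 5 and 4542 in the *NELF-E* comparison, with the fewest of the latter without *lacZ* RNAi replicate 3 and *NELF-E* RNAi replicate 2 (chosen after seeing the data). The cause of these moves was not tested. The estimates for *NELF-E* RNAi changed sign for *Jon65Aiii* with a pseudocount of 0.1 (−0.052), with array weights (−3.98) and over libraries left out (−1.90 to 1.89), and for *Jon65Aiv* with array weights (−4.13) and over libraries left out (−1.88 to 2.13). The difference for *Mal-B2* changed sign with DESeq2 (−0.053) and over libraries left out (−0.42 to 1.33). DESeq2 left the adjusted p of the Jonah genes in the *NELF-E* comparison undefined. No TRIBE site in these genes passed under any alternative run, while the 65 sites called in all genes fell to between 0 and 37 when 1 library was left out.

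Whether replicate numbers pair the samples was not settled. The deviations of same-numbered libraries correlated by 0.12, 0.011 and −0.17 (*4EHP*) and by 0.30, 0.18 and −0.21 (*NELF-E*). Those of differently numbered libraries correlated by −0.28 to 0.17 (*4EHP*) and by −0.39 to 0.42 (*NELF-E*). With the replicate block, limma called 3 members and 709 genes lower and 313 higher in the *NELF-E* comparison, against 205 and 167 without it, and 0 members in the others. Depth was not the limit for the abundant members, whereas 1 read was worth 0.00576 to 0.0167 CPM, so members of a few reads have no usable level.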
